A study of Mus musculus with 121 samples.

Results

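Creb3l1 and 8 genes of the early secretory pathway were followed in mouse fibroblasts given cycles of glucose and insulin. This pathway runs from the endoplasmic reticulum (ER) to the Golgi. The set, 9 of the 31053 genes with counts listed, was drawn up by name from results of these data and holds Creb3l1, Kdelr1, Kdelr2, Kdelr3, Sec23a, Sec24d, Sec61b, Yif1b and Fkbp7. All 9 passed the filter on low counts, which left 13292 genes to test. The values that chose them were CPM (the reads of a gene scaled to a fixed library total) by treatment and collection, so the values of the 9 genes are a description and carry no test.

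All groups used 1 immortalized line of ear fibroblasts from a knock-in mouse of the genotype PER2::LUC sv, at expansion passage P25, so that differences between mice or lines were not sampled. In HL, 12 h of medium high in glucose and insulin (H) alternated with 12 h of low medium (L) for 3 cycles, LH began with the low medium, and HH had high medium at every change. The cycles were followed by 12 h of a free-running stage, without further metabolic cycles, as the study describes it. RNA was then collected 6 times, 4 h apart, and hours here count from the first collection, not from the end of the cycles. The titles also carry clock hours that do not run in 4 h steps: over the 6 collections they read 20, 12, 4, 8, 12 and 16 in HL and HH, and LH reads 16 and 20 at the collections where the others read 4 and 8. Time was therefore taken from the collection number, and every time course rests on that choice. By the titles there were 21 HL, 22 LH and 19 HH libraries, with 2 to 4 in a collection.

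The titles and the library numbers of a read summary disagree on which library is which. Of the 62 libraries, 40 have another name by their number or are not listed, while all 19 HH libraries have the same name by both. By number 57 libraries could be used, 19 of each treatment, with 1 library in the 16 h collection of LH. Which of the 2 is right was not settled here, so results are given by titles and then by numbers.

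Libraries held 104912 to 11619095 counts (median 5825881), and the second lowest held 2136819. In 5 libraries the median Pearson's r to the other libraries was under 0.9, and this limit was chosen after the data were seen. By titles they were LH replicates 1 and 2 and HL replicate 3 of the 4 h collection, HL replicate 2 of the 16 h collection and HH replicate 3 of the 20 h collection. Of 10 fibroblast markers 10 had a mean of at least 1 CPM, with a summed level of 9861 to 38620 CPM. Of 5 keratinocyte markers 1 (Cdh1) reached 1 CPM and Krt5 was at 0, of 4 endothelial markers 1 reached it, of 4 immune markers 3 did, and of the cartilage, melanocyte and muscle markers 0 did. The summed endothelial level was 22.9 to 269.7 CPM, with medians of 162.5 CPM in HL, 194.1 CPM in LH and 184.9 CPM in HH by titles, and Kdr was the one of the 4 with a mean of at least 1 CPM. The summed immune level was 4.96 to 295.5 CPM and was highest in the library of 104912 counts. The part of these libraries and markers in the results was not tested, and values without the 5 libraries are given for the main results.

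Proteins made for secretion enter the ER through the Sec61 channel, leave it in vesicles coated by the COPII complex and reach the Golgi. Escaped ER residents are caught there by the KDEL receptors and returned in COPI vesicles. Creb3l1, also called OASIS, is a membrane-bound transcription factor of the ER that is cut in the Golgi to release its active part, and in bone it is known for driving collagen I and secretory genes. Fibroblasts secrete large amounts of collagen, which leaves the ER in COPII carriers.

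The members differ in their share of the route. Kdelr1, Kdelr2 and Kdelr3 are the KDEL receptors, Sec23a and Sec24d belong to the inner COPII coat, Sec61b is the beta subunit of the Sec61 channel, Yif1b is a membrane protein of the early Golgi, and Fkbp7 is an ER prolyl isomerase. Their genes lie on the mouse assembly GRCm38 (GENCODE M21) as follows: Creb3l1 at chr2:91982328-92024502 and Fkbp7 at chr2:76663044-76673116, both on the minus strand, Kdelr1 at chr7:45872772-45883732 and Yif1b at chr7:29238329-29247597 on the plus strand, and Kdelr2 at chr5:143403838-143421901 on the plus strand. Kdelr3 lies at chr15:79516411-79527739, Sec24d at chr3:123267455-123365641 and Sec61b at chr4:47474658-47483242, all on the plus strand, and Sec23a at chr12:58958383-59012017 on the minus strand. At their 3′ ends Kdelr3 shares 4 bases with Ddx17, Sec23a shares 431 exon bases with the antisense gene Gm17529, and Yif1b shares 361 with 2200002D01Rik, all on the opposite strand. The sources used here do not say whether counting used strand. Without strand, reads on the shared bases could be left out of both genes as ambiguous, and the levels listed for both could then be too low. The mean levels listed for Gm17529 and 2200002D01Rik were 0.0089 and 0.2186 CPM, and Ddx17 had 89.5 CPM, above the level of Kdelr3.

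CREB3 family factors are known to bind elements with an ACGT core, so the 250 bases before the start of each gene were searched, on both strands, in the RefSeq promoters of GRCm38.p6. Entries were found for 7 of the 9 members, all but Creb3l1 and Kdelr2. A gene can have several entries, each with its own start, and was counted once if any of them held the motif: Yif1b has 3 entries and the other 6 members have 1 each, and the table holds 32851 entries for 27025 genes. TGACGTGG, the UPR element, was in 2 of the 7 (Sec24d and Kdelr3) and in 0.603% of all genes, and it was in 4 of 98 other early secretory genes with an entry. TGACGT, which the UPR element contains, was in 4 of 7 (Fkbp7, Kdelr3, Sec24d and Yif1b), in 16 of the 98 and in 7.29% of all. ACGTGGC, which can overlap the UPR element, was in 3 of 7 (Kdelr3, Sec24d and Yif1b), in 16 of the 98 and in 2.33%. CACGTG, the E-box bound by clock factors, was in 0 of 7, in 8 of the 98 and in 6.86%. The ER stress element, known as ERSE, was in 0 of 7, in 0 of the 98 and in 0.13%, and its end CCACG was in 3 of 7, in 62 of the 98 and in 31.0%. Windows of 30 bases are shown for the members with TGACGT or ACGTGGC, the motifs with the ACGT core that were found in members. Capitals mark the motif, letters are given on the strand of the gene, and bases are counted from the start of the entry, which differs between the windows of Yif1b.
Sec24d, chr3:123267459-123267488, plus strand, TGACGTGG from base -26: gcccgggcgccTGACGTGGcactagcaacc
Kdelr3, chr15:79516367-79516396, plus strand, TGACGTGG on the opposite strand from base -30: tggccgccccgCCACGTCAccgcgcggcca
Fkbp7, chr2:76673099-76673128, minus strand, TGACGT from base -17: ccttggacctttgTGACGTaggacaatgcc
Yif1b, chr7:29238180-29238209, plus strand, TGACGT on the opposite strand from base -131: gcctcttcccttACGTCAttggcctcagtt
Yif1b, chr7:29238427-29238456, plus strand, ACGTGGC from base -9: ccccggctgcgtaagtggcgtACGTGGCtg

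By GENCODE M21 the Sec24d window and the Fkbp7 window overlap an exon and its UTR, the second Yif1b window overlaps an exon with coding and UTR bases, and the Kdelr3 window and the first Yif1b window lie before the annotated gene. A match describes the letters and was not tested as a binding site.

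The 3′DGE method reads the 3′ end of each transcript, so a count does not grow with the length of a gene. The order of genes below is that of their CPM, and reads lost at overlapping 3′ ends could shift it. Over the 62 libraries the KDEL receptor Kdelr1 had the highest mean level at 286.95 CPM, followed by Fkbp7 at 197.9 CPM and Kdelr2 at 185.5 CPM. Sec61b at 77.4 CPM and Creb3l1 at 72.3 CPM came next, then Yif1b at 57.2 CPM, Sec23a at 56.9 CPM and Sec24d at 39.0 CPM. Kdelr3 was the lowest at 12.7 CPM. The SD over libraries was 59.5 CPM for Kdelr1, 39.1 CPM for Kdelr2, 33.9 CPM for Fkbp7, 22.3 CPM for Sec61b and 21.6 CPM for Creb3l1. It was 13.8 CPM for Yif1b, 13.3 CPM for Sec23a, 7.87 CPM for Sec24d and 4.42 CPM for Kdelr3. The neighbours Fkbp7 and Kdelr2, Sec61b and Creb3l1, and Yif1b and Sec23a were closer than the SD of either. Creb3l1 and Yif1b differed by less than the SD of Creb3l1 but more than that of Yif1b, whereas the step from Kdelr2 to Sec61b was larger than the spread of either. Kdelr3 had 1 count and Creb3l1 had 7 counts in the library of 104912 counts, so single values of low genes there have little precision.

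Creb3l1 stood higher early in HH, the treatment in which titles and numbers name the same libraries. At 0 h the 4 HH libraries read 99.5, 91.7, 102 and 76.7 CPM and at 4 h the 3 libraries read 73.0, 107.4 and 120.2 CPM. At 8 h they read 76.3, 78.4 and 69.8 CPM, at 12 h 62.01 and 39.4 CPM, at 16 h 68.3, 65.8 and 60.8 CPM and at 20 h 97.0, 58.9, 68.8 and 46.3 CPM. The first 2 collections averaged 95.8 ± 16.8 CPM (SD, n = 7) and the later 4 averaged 66.0 ± 14.9 CPM (SD, n = 12), and 3 of the 12 later libraries lay above the lowest early one, so the early and late values overlapped. This division into early and late was made with the data known.

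In HL the course of Creb3l1 depended on which names were used. By titles the values were 109, 98.6 and 79.3 CPM at 0 h, 67.1, 49.6, 23.7 and 91.7 CPM at 4 h, and 95.1, 86.6 and 97.6 CPM at 8 h. They were 92.1, 88.6, 77.3 and 65.5 CPM at 12 h, 67.3, 39.1 and 62.1 CPM at 16 h, and 64.2, 61.9, 44.5 and 44.5 CPM at 20 h. The 4 h libraries were lower than most at 0 and 8 h, and the 4 h collection held the widest range. The 23.7 CPM at 4 h and the 39.1 CPM at 16 h came from libraries among the 5 unlike the others. By numbers the values were 109, 98.6 and 79.3 CPM at 0 h, 110.9, 111.7 and 87.8 CPM at 4 h, and 79.2, 70.2 and 44.8 CPM at 8 h. They were 68.0, 71.3, 77.0 and 55.7 CPM at 12 h, 63.6, 56.3 and 46.4 CPM at 16 h, and 64.8, 78.4 and 61.4 CPM at 20 h. By numbers the lowest of the 6 early libraries (79.3 CPM) lay just above the highest of the 13 later ones (79.2 CPM), with means of 99.5 ± 13.5 and 64.4 ± 11.3 CPM (SD). By titles the HL means were 95.6, 58.0 and 93.1 CPM at 0, 4 and 8 h, so the same division did not separate the libraries.

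LH differed between the names in the same way. By titles Creb3l1 read 71.6, 59.4 and 63.5 CPM at 0 h, 14.5, 66.7 and 93.6 CPM at 4 h, and 110.9, 111.7, 87.8 and 79.2 CPM at 8 h. It read 70.2, 44.8, 77.0 and 55.7 CPM at 12 h, 68.0, 71.3, 63.6 and 56.3 CPM at 16 h, and 46.4, 64.8, 78.4 and 61.4 CPM at 20 h. The 8 h libraries were then the highest collection, and the lowest value, 14.5 CPM, belonged to 1 of the 5 libraries unlike the others. The 66.7 CPM at 4 h was 7 counts in the library of 104912 counts, also among the 5. By numbers the values were 95.1, 86.6 and 91.7 CPM at 0 h, 97.6, 92.1 and 88.6 CPM at 4 h, and 77.3, 65.5, 67.3 and 39.1 CPM at 8 h. They were 62.1, 64.2, 61.9 and 44.5 CPM at 12 h, 44.5 CPM in the single library at 16 h, and 14.5, 71.6, 59.4 and 63.5 CPM at 20 h. By numbers the 6 early libraries averaged 91.9 ± 4.03 CPM and the 13 later ones 56.6 ± 16.8 CPM (SD), without overlap, and without the libraries unlike the others the later mean was 62 ± 9.97 CPM (SD, n = 11). By titles the LH means were 64.8 and 58.3 CPM at 0 and 4 h and 97.4 CPM at 8 h, so there the early libraries did not stand higher.

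**Figure D1:**
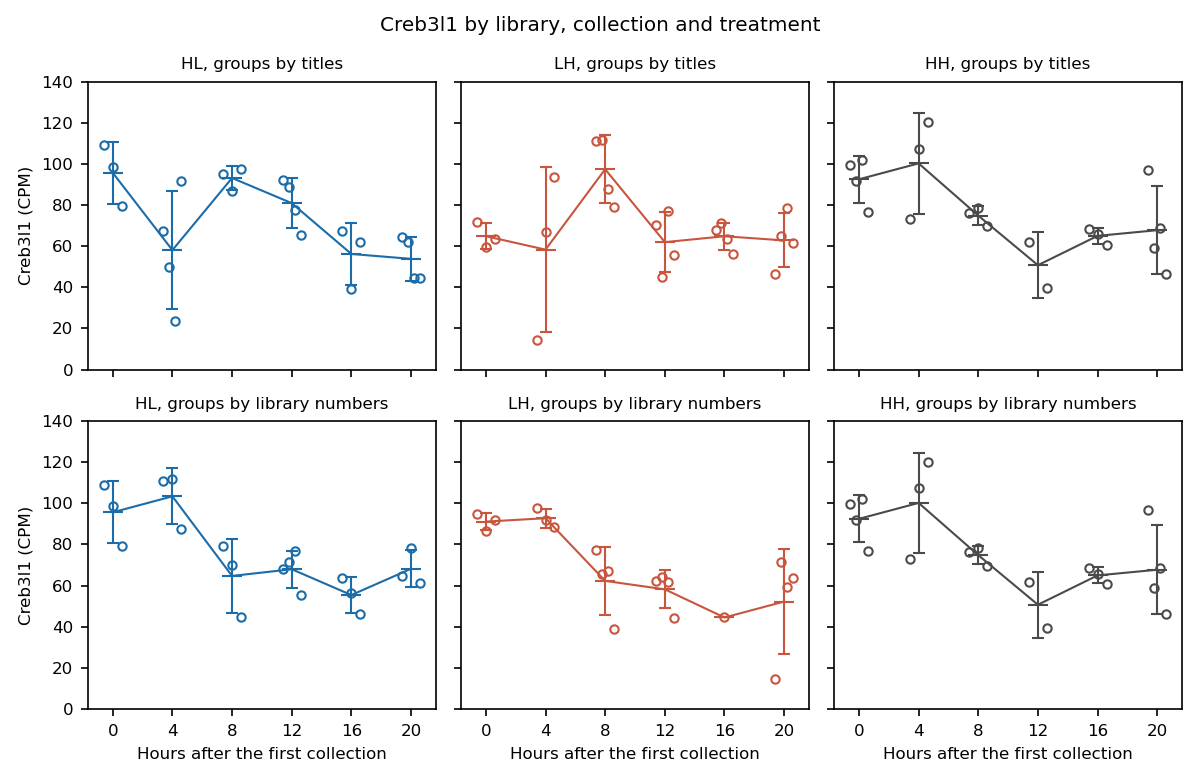
Creb3l1 in CPM against hours after the first collection, for HL, LH and HH, with groups by titles above and by library numbers below. Open circles are libraries, and dashes with bars are the mean and SD of a collection (no SD for the single LH library at 16 h). In the lower row the 0 and 4 h means are the 2 highest in every treatment, and in the upper row this holds for HH only.

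The 24 h rhythm was scored with JTK_CYCLE, which compares the order of the libraries over time with a 24 h curve and was called at P under 0.01. Since the members were chosen on these collections, the calls are given beside the share of all tested genes called and nothing is read from them. By titles the calls were Sec24d in HL (1 of 9 members, against 0.82% of all genes), Yif1b and Fkbp7 in LH (2 of 9, against 1.51%) and Creb3l1 and Fkbp7 in HH (2 of 9, against 1.99%). By numbers they were Creb3l1 and Fkbp7 in HL (2 of 9, against 1.82%), Creb3l1 and Sec24d in LH (2 of 9, against 2.14%) and again Creb3l1 and Fkbp7 in HH (2 of 9, against 2%). The calls named the same genes without the 5 libraries, against 1.03%, 1.9% and 1.76% of all genes in HL, LH and HH by titles and 1.83%, 2.97% and 1.77% by numbers. Leaving out each replicate number in turn gave 0 to 2 calls in each treatment by titles. The share of all genes was then 0.424% to 1.17% in HL, 0.963% to 1.59% in LH and 0.772% to 1.54% in HH. After adjustment over genes 0 members were called in any treatment, against 0%, 0% and 0.0226% of all genes by titles. The fitted peak of Creb3l1 lay at 2 h in HH, and by numbers at 4 h in HL and 2 h in LH. By titles Creb3l1 was not called in HL or LH, and the highest collection mean of LH was then at 8 h.

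Fkbp7, the prolyl isomerase, ran later than Creb3l1 where titles and numbers coincide. In HH it read 223.2, 186.7, 177.6 and 191.9 CPM at 0 h, 240.3, 239.6 and 202.1 CPM at 4 h, and 261.96, 229.3 and 216.1 CPM at 8 h. It then read 183.9 and 228.1 CPM at 12 h, 209.1, 225.9 and 180.5 CPM at 16 h, and 188.7, 120.2, 120.5 and 160.8 CPM at 20 h. The 8 h mean was 1.60 times the 20 h mean, the lowest library of 8 h stood above the highest of 20 h, and the fitted peak was 8 h. By numbers the HL means ran from 247.3 ± 20.9 CPM at 4 h to 163.7 ± 12.4 CPM at 20 h (SD, n = 3 each), with a fitted peak at 8 h, and by titles the HL means were highest at 12 h with a fitted peak at 16 h.

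Of the KDEL receptors, Kdelr3 had the highest ratio between collection means in each treatment, by titles and by numbers. In HH the 4 libraries at 0 h read 20.7, 18.6, 19.5 and 17.6 CPM, against 11.8 and 6.74 CPM at 12 h and 13.8, 12.1, 19.9 and 11.7 CPM at 20 h. The means of the highest and lowest collections differed 2.06-fold in HH. By titles this ratio was 1.91 in HL and 2.33 in LH, and by numbers 1.71 in HL and 3.14 in LH, where the low collection was the single 16 h library. For Kdelr2 the ratios by titles were 1.47 (HL), 1.39 (LH) and 1.34 (HH), and for Kdelr1, the most abundant receptor, 1.26, 1.28 and 1.33. By numbers the LH ratios were 2.79 for Kdelr2 and 1.65 for Kdelr1. By titles without the 5 libraries, which leaves 1 LH library at 4 h, the LH ratios were 2.05 for Kdelr2, 2.06 for Kdelr1 and 2.74 for Kdelr3. Kdelr3 also had the fewest counts of the 9 genes, and their part in its ratio was not tested.

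For the COPII gene Sec24d the highest collection mean by titles was 1.48 times the lowest in HL, 1.32 times in LH and 1.435 times in HH, and in LH it was 1.60 times by numbers and 2.02 times by titles without the 5 libraries. In HL by titles the 20 h libraries read 34.9, 29.3, 31.5 and 28.0 CPM and the 8 h libraries 45.4, 51.5 and 40.8 CPM, without overlap. In HH the 0 h libraries read 54.0, 46.3, 51.5 and 42.4 CPM and the 12 h libraries 35.1 and 32.5 CPM, also without overlap. For Sec23a, its partner in the coat, the highest collection mean was 1.51 times the lowest for HL by titles, 1.38 times for LH and 1.44 times for HH. In LH it was 2.18 times by numbers, with 1 library in the low collection, and 1.89 times by titles without the 5 libraries. The highest HH collection of Sec23a was 20 h, with 54.6, 90.1, 105.1 and 53.2 CPM, and it was 0 h without the 105.1 CPM library, which is 1 of the 5. Over all 9 members the median of this ratio by titles was 1.48 for HL, 1.39 for LH and 1.46 for HH. Without the 5 libraries it was 1.89 for LH by titles, with 1 library at 4 h, and by numbers with all libraries 1.71 for LH, with 1 library at 16 h.

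Yif1b was highest at 12 h in LH by titles, with 77.2, 81.4, 58.7 and 87.3 CPM. In HH it was highest at 0 h with 94.5, 67.8, 63.4 and 75.2 CPM, and by numbers its highest collection was 0 h in HL, LH and HH alike. Sec61b had its highest mean in HH at 20 h, where the libraries read 80.5, 121.2, 209.8 and 54.7 CPM, and the 209.8 CPM came from 1 of the 5 libraries unlike the others. Of the other collections of HH, the 0 h libraries of Sec61b read 93.3, 81.7, 100.3 and 94.7 CPM.

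**Figure D2:**
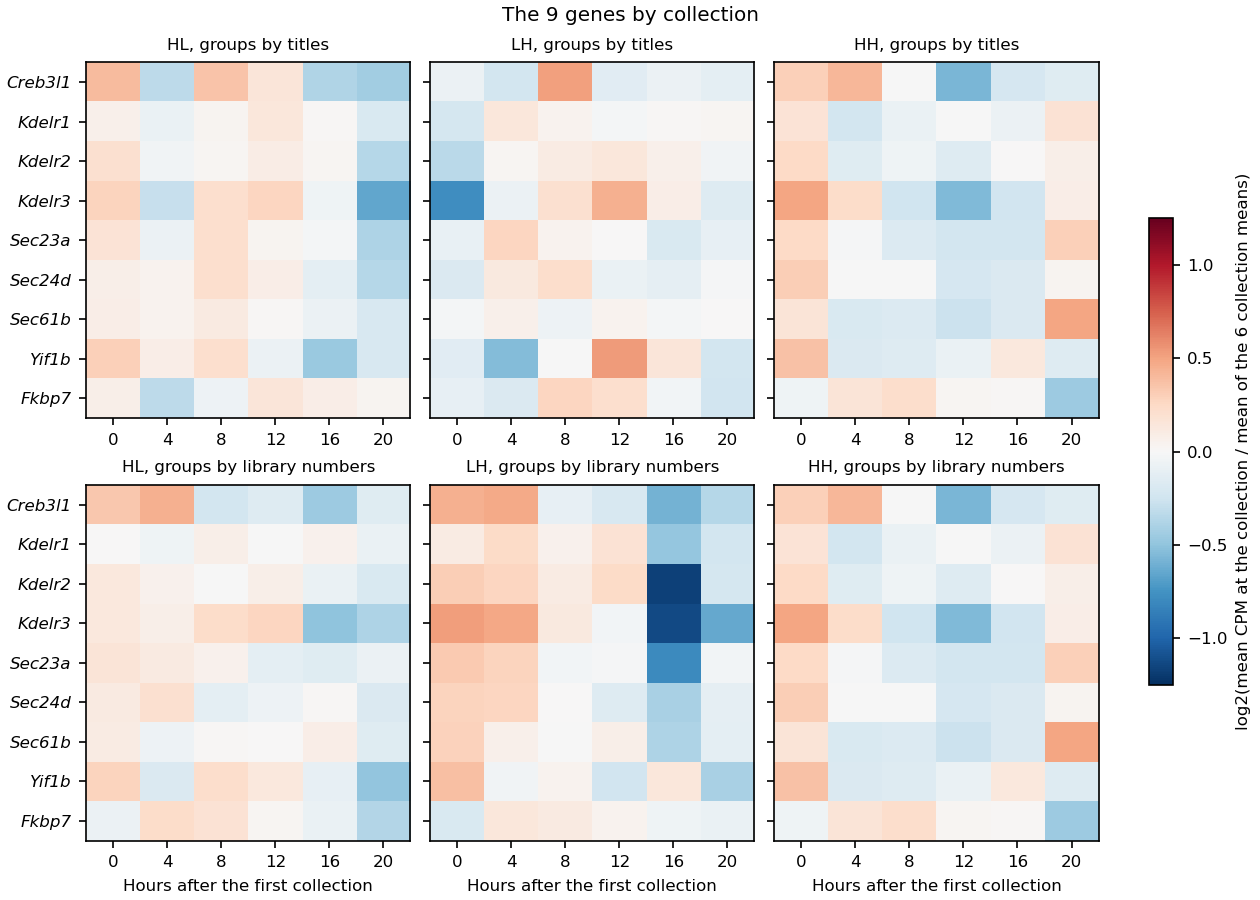
The 9 genes (rows) by hours after the first collection (columns), for each treatment and for groups by titles (above) and by library numbers (below). Colour is the log2 ratio of a collection's mean CPM to the mean of the 6 collection means, and the darkest column, 16 h of LH by numbers, is 1 library, with Kdelr2 at 70.5 CPM and Kdelr3 at 4.72 CPM.

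Next, the levels of the members were set side by side between treatments, which asks whether the order or presence of the low medium moved the average over the day. Creb3l1 averaged 71.7 ± 22.8 CPM in HL (SD, n = 21), 68.9 ± 21.2 CPM in LH (n = 22) and 77.0 ± 21.1 CPM in HH (n = 19) by titles. Kdelr3 averaged 11.95, 12.3 and 14.2 CPM in the same order, and Sec23a 53.4, 54.6 and 63.5 CPM. Fkbp7 averaged 189.2, 204.9 and 199.3 CPM, and Kdelr2 182.5, 182.3 and 192.5 CPM. By titles HH had the highest mean in 8 of the 9 members, all but Fkbp7, by numbers in 6, and by titles without the 5 libraries in 5. The share of all genes with their highest mean in HH was not examined and the members were chosen on these levels, so nothing is read from these counts. For Creb3l1 the differences were small beside the SD over libraries.

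In an edgeR model with collection as a term, the log2 fold changes of the 9 members by titles lay between -0.18 and 0.05 for LH against HL, between -0.05 and 0.23 for HH against HL and between -0.02 and 0.21 for HH against LH. For Creb3l1 they were -0.09 (SE 0.12), 0.06 (SE 0.12) and 0.14 (SE 0.12). Of HH against HL and HH against LH, which share the HH libraries, Sec23a had 0.19 (SE 0.090) and 0.20 (SE 0.090), and Sec61b had 0.13 (SE 0.10) and 0.20 (SE 0.10). The change of HH against HL was above 0 in 7 of 9 members and that of HH against LH in 8 of 9. By numbers these counts were 5 and 8, and 2 and 8 by numbers without the libraries unlike the others. The share of all genes above 0 was not examined, so nothing is read from these counts. By titles without the 5 libraries they were 4 and 7. Sec61b then had 0.01 (SE 0.079) and 0.05 (SE 0.078), Sec23a 0.12 (SE 0.083) and 0.13 (SE 0.083), and Creb3l1 -0.05 (SE 0.097) and 0.04 (SE 0.097), so Creb3l1 changed sign for HH against HL.

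Since the members were chosen on these levels, their counts past a threshold are given beside the shares of all genes and nothing is read from them. By titles 0 of 9 members passed the thresholds for a level difference (0.01 over the 3 treatments and 0.05 in the comparison, unadjusted) in any of the 3 comparisons, in edgeR and in DESeq2. The comparison itself was under 0.05 without adjustment for 0, 1 and 1 members in both tools, and the share of all genes under that threshold alone was not examined. The shares that follow are for both thresholds. Of all genes, 0.429% passed as higher and 0.73% as lower in LH against HL, 0.459% and 0.745% in HH against HL, and 0.481% and 0.429% in HH against LH. By numbers 1 member passed, Kdelr3, which was lower in LH than in HL (log2 fold change -0.36, SE 0.14, against 0.386% of all genes called lower) and higher in HH than in LH (0.41, SE 0.14, against 0.455% called higher). Its means by numbers were 13.6 CPM for HL, 10.7 CPM for LH and 14.2 CPM for HH. By numbers 0.955% of all genes were called higher in LH than in HL, 0.22% higher and 0.349% lower in HH than in HL, and 1.17% lower in HH than in LH. By titles the change between LH and HL was 0.02, and by numbers without the libraries unlike the others it was -0.31 and 0 members passed. In that setting 0.946% of all genes passed in LH against HL, 1.09% in HH against HL and 1.32% in HH against LH.

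**Figure D3:**
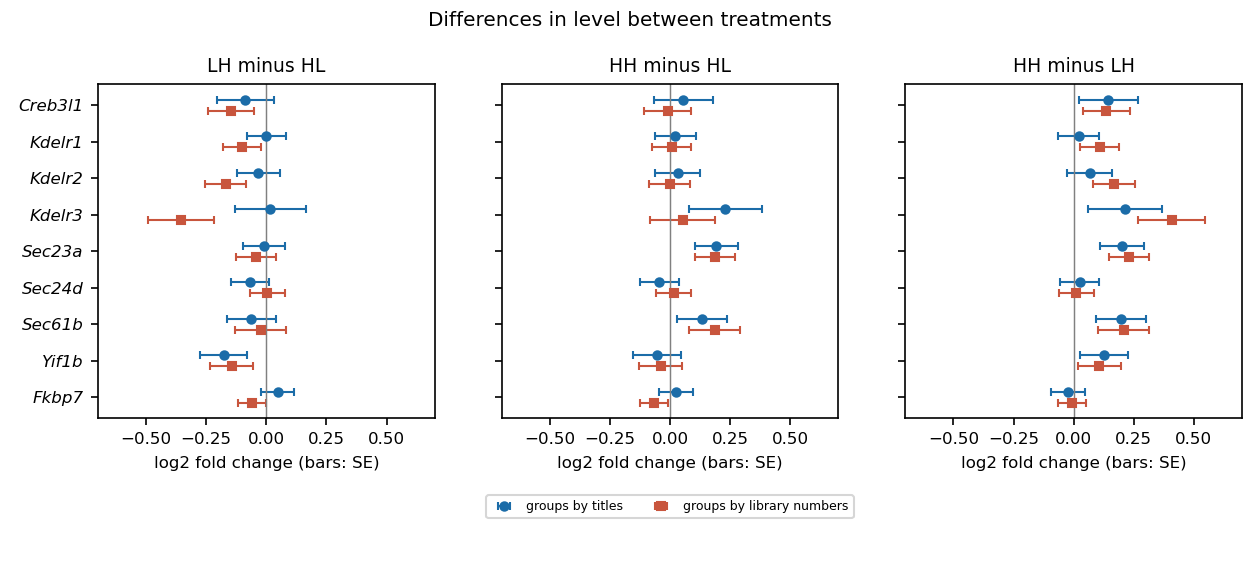
Log2 fold changes of the 9 genes between treatments from the edgeR model (x axis), with bars of 1 SE, for groups by titles (circles) and by library numbers (squares). Values by titles lie between -0.18 and 0.23, and the farthest from 0 are those of Kdelr3 by numbers, at -0.36 and 0.41.

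The libraries could also be compared without any group, which does not depend on the names. Over the 62 libraries, Pearson's r between Creb3l1 and the 8 other members, on log2(CPM + 1), was 0.541 for Kdelr3, 0.474 for Kdelr1, 0.461 for Kdelr2 and for Sec23a, 0.406 for Yif1b, 0.357 for Sec61b, 0.332 for Fkbp7 and 0.299 for Sec24d. The median was 0.433, against 0.216 over 7779 genes with a mean of at least 10 CPM. Without the 5 libraries the values were 0.503 for Sec24d, 0.468 for Kdelr3, 0.449 for Sec23a, 0.413 for Kdelr2, 0.257 for Sec61b, 0.202 for Fkbp7, 0.192 for Kdelr1 and 0.0487 for Yif1b, with a median over the 8 members of 0.335, against 0.127 over all genes. With the second sequencing run alone (59 libraries, down to 10069 counts) the median of the members was -0.048, below the 0.413 of all genes, and Sec23a (0.741), Kdelr1 (0.62) and Yif1b (0.494) were above it while the other 5 lay between -0.214 and -0.00663. With each library taken as its deviation from its group mean, the median was 0.426 by titles and 0.318 by numbers, against 0.209 and 0.219 over all genes. Kdelr1 was then the highest member (0.556 and 0.494) and Sec24d the lowest (0.0423 and -0.0409), and by numbers Sec23a (0.154) and Kdelr3 (0.156) were also below all genes. Points share library preparation and depth, so these values describe the libraries and carry no P. The order of the members thus changed with the libraries, the run and the removal of group means.

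The KDEL receptors ran closer to one another than to Creb3l1. Kdelr1 and Kdelr2 had r of 0.813, Kdelr2 and Kdelr3 0.795, and Kdelr1 and Kdelr3 0.665, and without the 5 libraries these were 0.827, 0.767 and 0.605. Sec23a ran with Sec61b (0.745) and with Kdelr2 (0.72). Fkbp7 ran apart, with r between -0.371 (Sec61b) and 0.332 (Creb3l1).

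**Figure D4:**
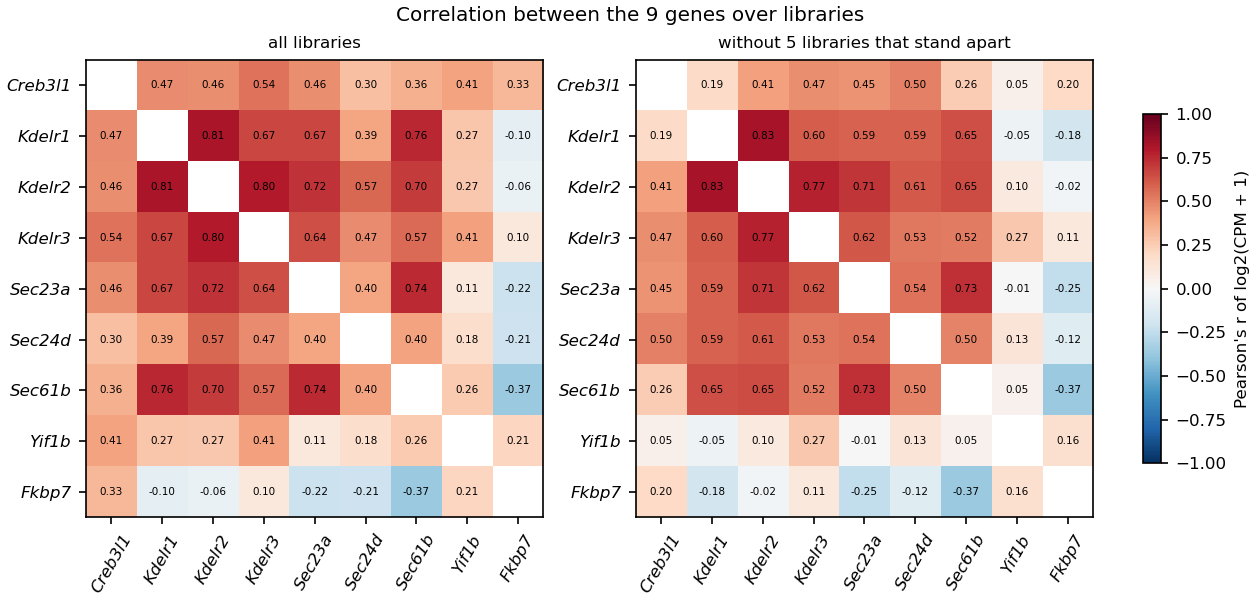
Pearson's r of log2(CPM + 1) between the 9 genes over all 62 libraries (left) and over the 57 left without the 5 libraries unlike the others (right). Among the 3 KDEL receptors, Sec23a and Sec61b r is 0.57 to 0.813 on the left and 0.518 to 0.827 on the right, Sec24d has 0.393 to 0.574 with them on the left and 0.499 to 0.61 on the right, and Fkbp7 is near 0 or negative with most of them.

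Among all genes with a mean of at least 10 CPM, those most like Creb3l1 over the libraries were Fbn1 (r 0.856), Il1rl1 (0.853), Rgs12 (0.852), Rflnb (0.846) and Kctd5 (0.845). With the second run alone Rgs12 and Kctd5 had 0.859 and 0.878, but Il1rl1 had 0.554, Fbn1 0.375 and Rflnb 0.215, the last 2 below the 0.413 of all genes. Lman1, the cargo receptor that carries glycoproteins out of the ER, came sixth at 0.837 and was the first of the other early secretory genes. Without the 5 libraries Lman1 had the highest r of all genes, 0.794, and Spearman's rho over all libraries was 0.837, again the highest. With each library taken as its deviation from its group mean, r was 0.763 by titles and 0.775 by numbers, and Lman1 ranked 127 and 146. With the second run alone its r was 0.814 and it ranked 544. Collagen I, a known target of Creb3l1 in bone, had r of 0.801 for Col1a1 and 0.75 for Col1a2, while the ER chaperone Hspa5 had 0.168 and the clock gene Nr1d1 had -0.111. With the second run alone Col1a1 had 0.357 and Col1a2 0.384, both below the 0.413 of all genes. Without the 5 libraries Hspa5 had 0.423.

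**Figure D5:**
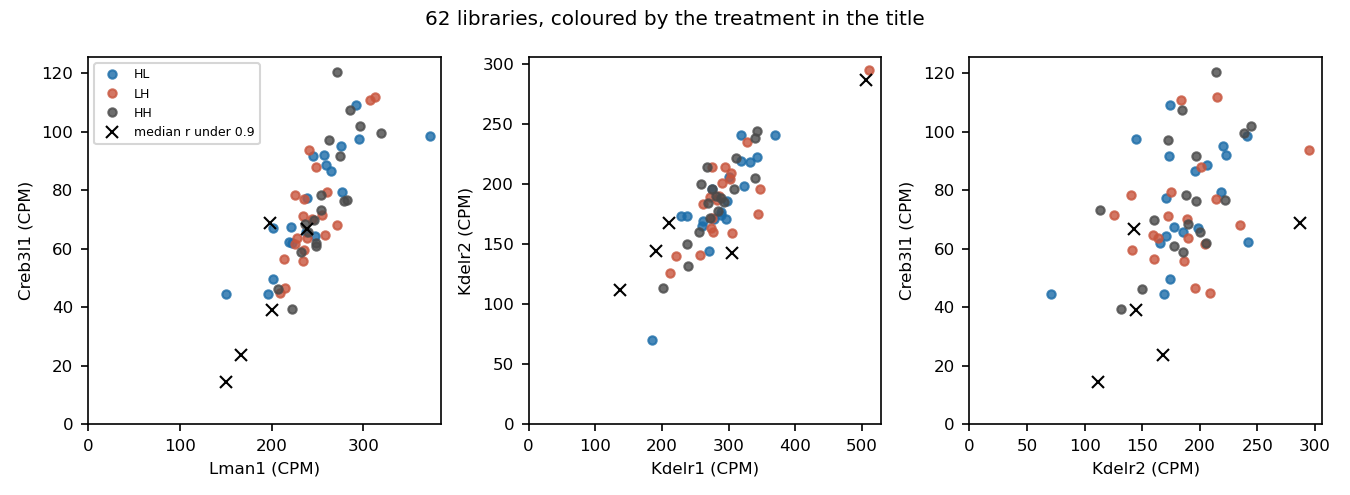
Levels in CPM over the 62 libraries, coloured by the treatment in the title: Creb3l1 against Lman1 (left, r 0.837), Kdelr2 against Kdelr1 (middle, r 0.813) and Creb3l1 against Kdelr2 (right, r 0.461). Crosses are the 5 libraries with a median r to the others under 0.9, and the 2 lowest Creb3l1 values, 14.5 and 23.7 CPM, are among them.

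The courses of Lman1, which was named for its r to Creb3l1 over these same libraries, are a description and no independent support for those of Creb3l1. In HH its means ran 293.2, 270.2, 259.5, 235.3, 241.7 and 224.9 CPM from 0 to 20 h. By numbers they were 313.9 and 289.4 CPM at 0 and 4 h and 222.5 to 243.8 CPM later in HL, and ran 261.6, 270.6, 224.5, 221.6, 150.7 and 217.1 CPM in LH. By titles the HL mean fell to 203.8 CPM at 4 h and stood at 278.3 CPM at 8 h. Col1a1, at 6785 CPM on average, ran from 9355 CPM at 0 h to 4883 CPM at 20 h in HH. By titles its means at 0, 4 and 8 h were 9798, 4636 and 9372 CPM in HL and 5659, 4420 and 8322 CPM in LH. By numbers they were 9798, 8471 and 6031 CPM in HL and 9381, 8943 and 6910 CPM in LH.

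Finally, 115 other genes of the early secretory pathway were examined, of which 112 were tested: COPII coat and exit sites (12), cargo receptors (20), tethers and SNAREs (23), COPI coat (15), the Yip family (7), the translocon and targeting (24), the CREB3 family and its proteases (4), ER FK506-binding proteins (5) and collagen I (2). The highest in each role were Sec31a (401.9 CPM), Ergic3 (309.9), Rab2a (205.4), Copb2 (247.7), Yipf3 (180), Sec61a1 (342), Mbtps1 (215.3), Fkbp9 (119.6) and Col1a2. Mbtps1 encodes the protease that cuts CREB3 family factors in the Golgi.

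Few of them were called rhythmic. By titles JTK_CYCLE called Srp9, of the signal recognition particle, in HL (1 of 112, 0.893%, against 0.82% of all genes), the COPI subunit Cope and the cargo receptor gene Mia2 in LH (2, 1.79%, against 1.51%) and the COPI subunit Copz2 in HH (1, 0.893%, against 1.99%). By numbers the calls were Golga2 in HL (1, against 1.82%), Copz1, Lman1, Col1a1 and Sec13 in LH (4, 3.57%, against 2.14%) and Copz2 in HH (1, against 2%). After Benjamini-Hochberg adjustment over all genes 0 of the 112 were called by titles in any treatment. By titles the shares of the list were close to or below those of all genes.

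In level, 2 of the 112 passed both thresholds by titles, and both were lower in HH. Gorasp2, a Golgi stacking protein, had a log2 fold change of -0.18 (SE 0.053) for HH against HL and -0.12 (SE 0.053) for HH against LH, with adjusted p of 0.364 and 0.883 in edgeR. Ergic3, a cargo receptor of the intermediate compartment, had -0.21 (SE 0.068) and -0.14 (SE 0.067), with adjusted p of 0.451 and 0.883 in edgeR. The 2 comparisons share the HH libraries. The 2 genes are 1.79% of the list, against 0.745% of all genes called lower in HH than in HL and 0.429% in HH than in LH. By numbers the same 2 genes passed, with log2 fold changes of -0.14 and -0.15 for Gorasp2 and -0.13 and -0.24 for Ergic3, and the 1.79% of the list then stood against 0.349% of all genes called lower in HH than in HL and 1.17% in HH than in LH. With either sequencing run alone 0 of the 112 passed in either comparison, and over 22 alternatives Ergic3 lost its call in 17 for HH against HL and 16 for HH against LH, and Gorasp2 in 6 and 8. In LH against HL 0 of the 112 passed by edgeR and 1 by DESeq2, with 8 under 0.05 without adjustment in both tools.

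A difference in rhythm between treatments was tested in edgeR as a difference in the 24 h cosine and sine terms. After adjustment over all genes 0 of the 112 passed for HL and LH, HL and HH or LH and HH, in edgeR and in DESeq2, against 0.0677%, 0.015% and 0.0527% of all genes in edgeR. Without adjustment 6 (5.36%), 23 (20.5%) and 17 (15.2%) of them were under 0.05 by titles in edgeR, against 7.21%, 9.91% and 9.61% of all genes, and 7, 24 and 21 in DESeq2. By numbers 1 (0.893%), 9 (8.04%) and 9 (8.04%) were under 0.05 in edgeR, against 3.01%, 5.48% and 6.87%, and after adjustment 0 were, against 0.00758%, 0% and 0% of all genes. The calls of Creb3l1 in single treatments do not show that its rhythm differed between them.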

How the data were processed

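3′DGE reads of 62 libraries were aligned with STAR 2.6.0a to mm10 and counted per gene with HTSeq 0.9.1 after bcl2fastq, per the submitters' processing notes, and the authors deposited the unique counts without normalization as 121 count sets, 1 per sequencing run. The sources used here give neither the strand setting nor the annotation release. The 2 runs of 59 libraries were summed and 3 libraries had 1 run. Lines that name no gene (18.4% to 29.1% of unique reads per run lay on no feature) were left out, and 30934 of 31053 identifiers matched a GENCODE M21 symbol. A library's total sets its precision, and SDs cover only the spread between these libraries, which may be partly technical.

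Tests covered genes that reached 1 CPM in 3 or more libraries. The JTK_CYCLE test was written anew in Python 3.11.15 (numpy 2.4.6, scipy 1.17.1) with its exact null, a 24 h period and 6 two-sided phase tests in 2 h steps with correction over them. Levels and rhythm differences used edgeR 4.0.16 quasi-likelihood tests with TMM in R 4.3.3. On simulated data with 200 changed genes, 172 level changes between LH and HL were found among 13292 genes (83 false calls), 120 rhythm differences between HL and LH (13 false), and 139 rhythms in LH among 13032 genes (85 false). In HL and HH, simulated with 0 rhythms, 77 and 70 of the 13032 genes were still called. Recovery at the log2 fold changes and collection ratios seen in the members was not tested. Alternatives were library numbers, depth, scaling, filter, single runs, DESeq2 1.42.0, a cosinor, a replicate block and left-out replicates.

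The members, gene lists, motifs and tests were chosen with earlier results of these data known. Named genes are the 9 members, list genes past a threshold, the highest list gene of each role, the 5 genes most like Creb3l1, Col1a1, Col1a2, Hspa5 and Nr1d1, and Lman1 as the list gene most like Creb3l1. Proteins ending in KDEL, HDEL or RDEL, which the rule also named, were not analysed here.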

Additional observations from a re-analysis of the deposited data

Results flagged for a closer look

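In groups of 4 libraries by titles, 81 combinations of member and group were examined, and in 2 a library lay far from its group. Chance marks about 1 group in 20 in this way. Kdelr1 in HL at 12 h read 342.3 CPM in replicate 1, against 296.2 to 299.7 CPM in the other 3 libraries. Kdelr2 in HL at 20 h read 70.5 CPM in replicate 4, against 165.5 to 170.9 CPM in the other 3. By its number the latter library is the single LH library at 16 h. Neither is among the 5 libraries unlike the others.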

How the results depend on the processing

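By titles JTK_CYCLE called 1 (HL), 2 (LH) and 1 (HH) of the other secretory genes. In HL the count was 0 with the first run alone, the second run alone, TMM-scaled CPM, the cosinor and Benjamini-Hochberg adjustment. In LH it was 4 by library numbers, 1 with either run alone, TMM scaling or the cosinor, 0 after adjustment, 4 without the 5 libraries unlike the others and 7 by numbers without them. In HH it was 0 with the first run, 4 with the second, 3 with the cosinor, 0 after adjustment and 2 without those libraries, by titles or numbers. Without one replicate number it ran from 0 to 3 in HL, 1 to 4 in LH and 0 to 3 in HH. The share of all genes called moved too, over all settings from 0% to 1.83% in HL, 0% to 3.27% in LH and 0.0226% to 2.87% in HH. The lowest share was the one after adjustment, and the highest was with the cosinor in LH and HH and by numbers without the libraries unlike the others in HL. Level counts were 0 for LH against HL and 2 for HH against each other treatment. LH against HL gave 1 without the filter, in DESeq2 and without the 5 libraries, and 0 to 1 without a replicate. HH against HL gave 1 without libraries under 1000000 counts, 0 with either run, without the filter and after adjustment, 1 by numbers without the 5 libraries, and 0 to 3 without a replicate. HH against LH gave 1 without shallow libraries, 0 with either run and after adjustment, 1 without the filter, and 0 to 4 without a replicate. With the replicate block both HH counts were 1. Over all settings 0% to 1.87% of all genes were called for LH against HL, 0% to 2.43% for HH against HL and 0% to 2.06% for HH against LH. By titles replicate numbers did not pair libraries: of 53 same-numbered pairs of one collection 14 had deviations with r over 0.1 (median -0.0191), against 45 of 159 other pairs. Pairing under the names by library number was not examined. Rhythm differences were found for 0 list genes under every alternative run, left-out replicates included. The median r of the 8 members to Creb3l1 was -0.048 with the second run alone, in which the median of all genes was 0.413, and between 0.309 and 0.444 otherwise. The r of Lman1 was 0.763 to 0.837, and its rank fell to 544 of 7779 genes with the second run. The cause of these changes was not tested. In the library of 104912 counts genes near 10 CPM have about 1 count.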
